A study of Mus musculus with 74 samples.

Results

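Nuclear receptors are transcription factors, many of them switched by small ligands such as fatty acids, bile acids, oxysterols, steroids, retinoids, thyroid hormone and foreign chemicals. A typical member binds DNA through zinc fingers and exchanges corepressors for coactivators when its ligand pocket is filled. NCOR and SMRT are corepressors that dock on receptors without agonist, GPS2 is a subunit of the corepressor complex, and liver uses the family to sense nutrients and to set lipid, bile acid and drug metabolism. The 35 genes described here were given as a list by symbol: the receptors Nr0b2, Nr1h2, Nr1h3, Nr1h4, Nr1i2, Nr1i3, Nr2c1, Nr2c2, Nr2f1, Nr2f2, Nr2f6, Nr3c1, Nr3c2, Nr4a1, Nr4a2, Nr5a2, Nr6a1, Hnf4a, Hnf4g, Esr1, Esrra, Esrrg, Ppara, Ppard, Pparg, Rara, Rarb, Rarg, Rora, Rxra, Rxrb, Rxrg, Thra, Thrb and Vdr. No measured value chose them, and the clock receptors Nr1d1 and Nr1d2 were left out. Of the 14583 genes in the RNA table, 34 were members, and Vdr was not among them. In the ChIP tables a peak was taken as a member's when the authors' annotation named that gene as the nearest one, which gave between 161 and 737 peaks per table.

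The libraries came from livers of C57BL/6 mice that the labels give as 8 to 12 weeks old. The H3K27ac and H3K4me3 libraries of the Gps2 line are labelled as fed, and the authors state a chow diet for the RNA-seq mice. Gps2 LKO livers lack Gps2 in cells in which albumin-driven Cre was active, and floxed mice without Cre from the same breedings served as WT. Ncor LKO and Smrt LKO livers are liver-specific knockouts, each with a WT group of its own, and Ppara KO mice (B6;129S4 stock) lack PPARα in the whole animal. RNA-seq was done on 4 WT and 4 Gps2 LKO livers. ChIP-seq with 3 libraries per group covered NCOR in the Gps2 and Ppara lines, GPS2 in the Ncor and Ppara lines, PPARα in the Gps2 and Ncor lines and H3K27ac in the Ncor and Smrt lines. PPARα in the Ppara line and H3K27ac and H3K4me3 in the Gps2 line had 2 libraries per group, and GPS2 and RNA polymerase II in the Gps2 line had 1. Several precipitations were pooled for each ChIP library during the last purification.

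The RNA libraries held 13.2 to 20.1 M counts and the ChIP libraries 7.90 to 46.1 M tags. Gps2 itself was at 16.1 to 17.7 CPM of the library total (CPM, counts scaled to a library of fixed size) in the 4 WT livers and at 8.60 to 11.9 in the 4 LKO livers. Its log2 fold change was -0.53 after TMM scaling, which equalises libraries by the genes that change least (SE 0.11, adjusted p = 0.0021). Values in CPM for the receptor genes are TMM-scaled, and scaling by library totals would lower every log2 change by 0.18. Alb, Apoa1, Ttr, Cps1 and Serpina1a, which mark hepatocytes, together held 110731 to 114304 CPM of the library total in WT and 138178 to 155099 in LKO, so the tissue label fits its defining markers. Among the LKO livers, replicate 2 stood apart: over genes its counts differed from each other LKO library with a mean chi-square of 18.6 to 27.3, against 1.65 to 2.43 between WT pairs. LKO replicate 3 also differed from LKO replicates 1 and 4 (9.33 and 8.62), which differed from each other by 1.51. The 3 WT libraries of PPARα in the Gps2 line differed by less than sampling noise (mean chi-square 0.987 to 0.999) and were counted as 1 sample.

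The first question was how much RNA each receptor gene made in control liver. On a scale per exon length and library (RPKM, mean ± SD, n = 4), Hnf4a, the receptor that maintains hepatocyte identity, had the highest level in WT at 163 ± 3.65. Rxra, the obligate partner of many other receptors, followed at 87.1 ± 2.44. Nr1i3, which encodes the xenobiotic sensor CAR, was at 77.7 ± 2.27, Nr1h4, the bile acid receptor FXR, at 70.9 ± 1.70, and Ppara, the fatty acid sensor, at 44.5 ± 1.95. Neighbours in this order of 5 did not overlap between their 4 WT libraries. At the other end, Hnf4g was lowest, with 0.0457 to 0.0696 RPKM in the WT libraries. Above it, Nr4a2, Esrrg and Nr2f1 lay between 0.171 and 0.348 RPKM in every WT library, and their libraries overlapped.

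**Figure D1:**
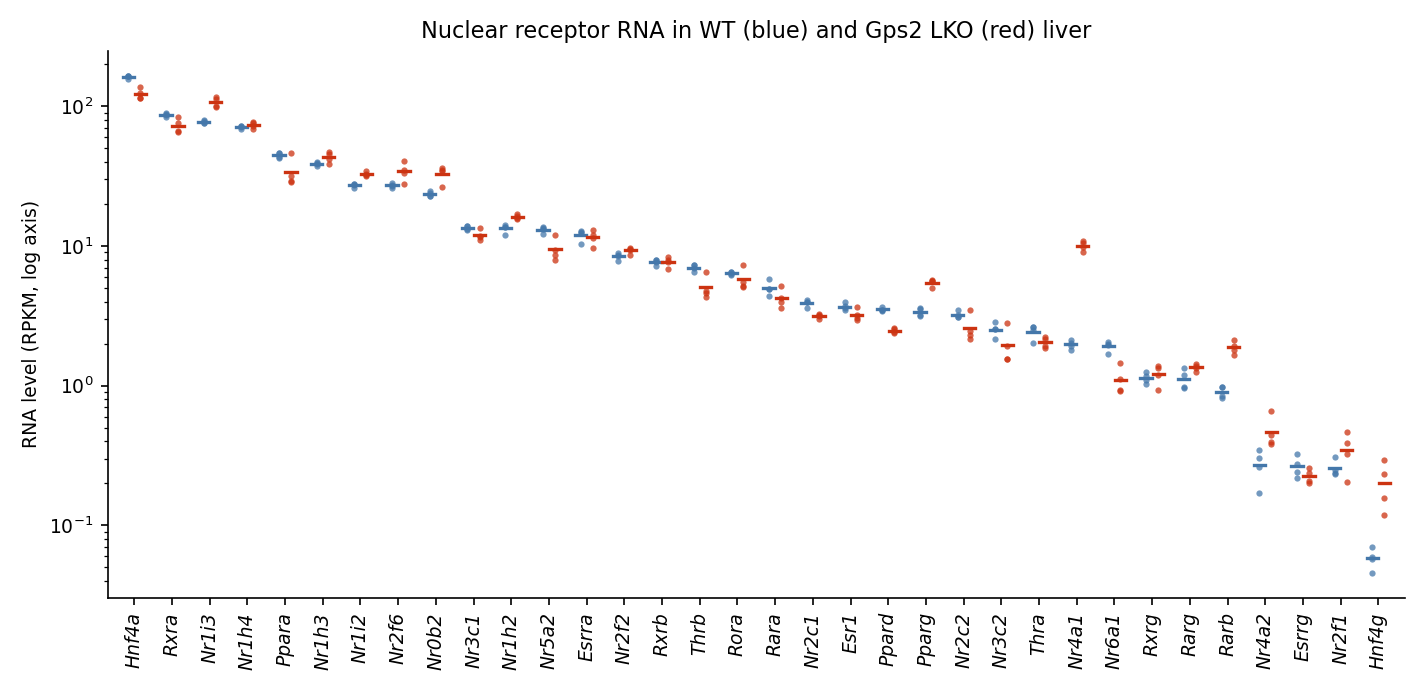
RNA level of the 34 receptor genes in the table (RPKM, log axis), ordered by their mean in WT. Points are the 4 WT livers (blue) and the 4 Gps2 LKO livers (red) and bars are group means. Nr4a1, Pparg and Rarb stand out as red points above all blue ones, and the upper range runs to 163 RPKM for Hnf4a.

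The second question was which receptor genes changed when the liver lost Gps2. Nr4a1 rose most, about 5-fold in level, followed by Rarb, Nr4a2 and Pparg. The CAR gene Nr1i3 and the SHP gene Nr0b2 rose by less. Nr6a1, Ppard, Thrb, Nr5a2 and Hnf4a fell. Of the 33 members that passed the filter on low counts, 9 were called higher and 8 lower at an adjusted p under 0.05, against 23.4% of the 12220 genes tested called higher and 21.4% called lower, so the receptor genes were called about as often as other genes. Their median log2 fold change was -0.06, beside 0.03 over all genes tested, and 21 of the 33 had an unadjusted p under 0.05. Longer genes tended to be lower in LKO (Spearman's rho of the change with exon length -0.40 over 12220 genes, which are not independent replicates). Removing that trend ended the calls of Nr1h2, Ppara and Rxra. Scaling by library totals would turn the sign of Nr1h3, Nr1h4, Nr2f2 and Rxrg, none of them called, and of no called member.

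Nr4a1 encodes NUR77, an orphan receptor of the immediate-early class that needs no ligand to act. It was at 5.27, 4.99, 4.48 and 4.78 CPM in the WT livers and at 22.3, 24.3, 26.8 and 26.1 in the LKO livers. The lowest LKO liver lay far above the highest WT liver. The log2 fold change was 2.35 (SE 0.10, adjusted p = 5.18e-10), and it was called in every one of the 13 alternatives tried. Its promoter is shown because it was the member with the largest change and because it carries repeated copies of a short motif. The sequence is that of RefSeq for build GRCm38.p6 (chr15:101266596-101266895, plus strand, 250 bases before to 50 after the start), and the capitals mark CGTCA, the complement of TGACG, the core of the cAMP response element.
Nr4a1 promoter: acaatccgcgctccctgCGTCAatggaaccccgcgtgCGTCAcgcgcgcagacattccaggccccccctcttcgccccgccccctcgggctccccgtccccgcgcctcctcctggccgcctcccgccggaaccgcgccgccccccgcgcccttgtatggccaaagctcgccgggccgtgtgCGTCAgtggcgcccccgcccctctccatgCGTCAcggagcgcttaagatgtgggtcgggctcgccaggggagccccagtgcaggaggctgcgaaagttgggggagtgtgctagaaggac
The 4 copies start 233, 213, 69 and 40 bases before the start site. Of the 32851 promoters in the RefSeq table, 20.8% hold TGACG on either strand at least once, and 0.231% hold it 4 or more times. A match is a string of letters and not evidence of a bound factor.

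Nr4a2, the NURR1 gene of the same class, was at 0.869, 1.01, 1.16 and 0.573 CPM in WT and at 1.27, 2.19, 1.49 and 1.32 in LKO. The groups did not overlap, but levels were low. The log2 fold change was 0.82 (SE 0.26, adjusted p = 0.0215). Without LKO replicate 2 it was 0.56 with an adjusted p of 0.0909, and leaving out WT replicate 1 or 4 also ended the call.

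The xenobiotic sensors were both higher in LKO. Nr1i3 (CAR) was at 107, 111, 114 and 108 CPM in WT and at 142, 159.9, 166 and 139 in LKO, a log2 fold change of 0.47 (SE 0.07, adjusted p = 0.000135). Nr1i2 encodes PXR, which binds drugs and bile acids. It was at 69.5, 70.3, 70.4 and 65.9 CPM in WT and at 82.3, 79.8, 87.2 and 81.8 in LKO, a smaller change of 0.26 (SE 0.06, adjusted p = 0.00376). Neither group of livers overlapped for either gene. Of 8 genes listed as CAR and PXR targets, 6 passed the filter on low counts, and the others were too low to test. Of the 6, 3 rose and none fell. The rises were Cyp2b9, a cytochrome P450 (log2 fold change 8.74), Gadd45b (1.38) and the glutathione transferase gene Gstm3 (1.21). Cyp2c55 (0.19) and Aldh1a1 (0.02) were not called, and whether CAR or PXR was more active was not tested. Cyp3a11, the classical PXR target, had a change of 0.05 (adjusted p = 0.576), which scaling by library totals would turn below 0.

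Nr0b2 encodes SHP, a receptor without a DNA-binding domain that represses other receptors and is induced by bile acids through FXR. It was at 31.7, 29.2, 29.1 and 30.9 CPM in WT and at 46.4, 33.8, 44.2 and 44.8 in LKO. LKO replicate 2 lay nearest to WT, and the groups did not overlap (log2 fold change 0.48, SE 0.10, adjusted p = 0.00145). Nr1h4, the FXR gene itself, was at 159.9, 168, 168 and 168 CPM in WT and at 169.7, 162, 177 and 181 in LKO. It was not called (0.05, adjusted p = 0.459), and neither of the 2 tested FXR targets, Abcb11 and Abcb4, was called. Nr5a2 encodes LRH-1, which drives bile acid genes and which SHP inhibits. It was at 46.7, 50.8, 52.4 and 52.1 CPM in WT and at 33.1, 46.5, 36.4 and 30.8 in LKO (-0.45, SE 0.11, adjusted p = 0.00467). All 3 genes listed as LRH-1 targets fell with it: Cyp8b1 (-1.02) and Cyp7a1 (-0.46), enzymes of bile acid synthesis, and Scarb1 (-0.25), the HDL receptor.

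The 3 PPAR genes moved in different directions. Ppard, the broadly expressed lipid sensor, was at 11.2, 11.2, 11.8 and 11.1 CPM in WT and at 7.69, 8.14, 8.30 and 7.74 in LKO (-0.50, SE 0.09, adjusted p = 0.000522). Pparg, best known as the fat cell regulator, was at 7.44, 8.26, 7.28 and 8.34 CPM in WT and at 13.2, 13.0, 13.1 and 11.5 in LKO (0.70, SE 0.09, adjusted p = 6.64e-05). Both genes had groups that lay well apart and were called in all 13 alternatives. Ppara, the receptor that the GPS2 and NCOR cistromes of this study were compared with, was at 319.5, 347, 349 and 325 CPM in WT and at 220.5, 349, 237 and 217 in LKO. In 3 LKO livers it was lower than in any WT liver, but LKO replicate 2 lay at the top of the WT range. The change was -0.39 (SE 0.12, adjusted p = 0.0205), and it became -0.60 (adjusted p = 1.06e-08) without that liver and -0.13 (adjusted p = 0.0703) with the length trend removed. Leaving out WT replicate 2 or 3 or LKO replicate 1, 3 or 4 also ended the call, with changes of -0.37 to -0.32 and adjusted p of 0.0524 to 0.0685. Of 12 tested PPARα target genes, 7 rose and 1 fell, with the lipid oxidation gene Cyp4a14 (4.85) and the hormone gene Fgf21 (4.30) highest and the lipase inhibitor gene Angptl4 (-0.36) lower.

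Retinoid receptors split by subtype. Rarb, itself a classical retinoic acid target gene, was at 3.10, 3.69, 3.20 and 3.69 CPM in WT and at 8.07, 7.27, 6.82 and 6.26 in LKO, with no overlap (1.06, SE 0.13, adjusted p = 2.28e-05). Rara and Rarg were not called (-0.24 and 0.27). Of the genes that degrade retinoic acid and respond to it, Cyp26a1 rose (1.43) and Cyp26b1 was not called. Among the partner receptors, Rxra was at 486, 487, 474 and 458 CPM in WT and at 363, 456, 414 and 358 in LKO (-0.26, SE 0.07, adjusted p = 0.0124). Its LKO replicate 2 was just under the lowest WT library, and the change was -0.09 (adjusted p = 0.073) with the length trend removed. Rxrb had a log2 fold change of 0.00 (adjusted p = 0.993), and Rxrg was not called (0.06).

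Stellate cells, which store retinoids, carry markers that moved with Rarb and Pparg. All 7 of 7 stellate cell and fibroblast markers rose in LKO, from a summed 173 to 183 CPM of the library total in WT to 287 to 308 in LKO, and none was at 0. All 6 tested Kupffer cell markers rose too (140.3 to 146 in WT and 171 to 188 in LKO), and so did 3 of 5 cholangiocyte markers (68.7 to 73.0 and 89.3 to 103). Of the others, 2 of 6 endothelial, 1 of 1 tested lymphocyte and 2 of 5 hepatocyte markers rose, and no marker of these lists fell. In whole liver, more cells of a type and more RNA per cell cannot be told apart, and the part of these cells in the rise of Rarb and Pparg was not tested.

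Hnf4a fell with no overlap between groups, from 762, 774, 770.5 and 736 CPM in WT to 532, 642, 585 and 536 in LKO (-0.41, SE 0.06, adjusted p = 0.000281). Its known targets did not fall as a group: of 6 tested, Ttr (0.86), Apoc3 (0.78) and Apoa2 (0.62), which encode a thyroid hormone carrier and lipoprotein parts, rose, and Apob fell (-0.82). Hnf4g, the close relative of Hnf4a, was at 0.248, 0.238, 0.291 and 0.191 CPM in WT and at 0.971, 1.22, 0.496 and 0.659 in LKO. These levels were under the count filter, so Hnf4g was not tested. Nr6a1, the germ cell nuclear factor gene, was at 12.3, 12.5, 10.6 and 13.0 CPM in WT and at 5.75, 9.16, 7.00 and 5.85 in LKO, the largest fall among the members (-0.77, SE 0.14, adjusted p = 0.00068). Nr2c1, the orphan receptor TR2, fell from 15.6, 13.7, 15.1 and 15.3 CPM to 11.5, 12.4, 12.0 and 12.5 (-0.30, SE 0.08, adjusted p = 0.00969). Its paralogue Nr2c2 (-0.30) overlapped between the groups and was not called.

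Thrb, the main thyroid hormone receptor of hepatocytes, was at 45.5, 47.6, 47.8 and 42.7 CPM in WT and at 28.3, 42.7, 30.4 and 31.4 in LKO (-0.46, SE 0.11, adjusted p = 0.00466). LKO replicate 2 almost touched the lowest WT liver. Thra, at a lower level, was not called (-0.25, adjusted p = 0.0996). Of 4 tested thyroid hormone targets, the lipogenic genes Me1 (0.94) and Thrsp (0.93) rose and the deiodinase gene Dio1 (-0.73) fell.

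Among the oxysterol receptors, Nr1h2 (LXRβ) was at 27.7, 27.9, 28.8 and 24.2 CPM in WT and at 32.0, 31.4, 34.5 and 32.9 in LKO (0.27, SE 0.08, adjusted p = 0.0122). The change was 0.15 (adjusted p = 0.0869) with the length trend removed. Nr1h3, the more abundant LXRα gene of liver, was not called (0.15, adjusted p = 0.0921). Of 8 tested LXR targets, 6 rose, among them the desaturase gene Scd1 (0.73) and the sterol exporter gene Abcg5 (0.50), and Abca1 fell (-0.58). Of the COUP family, Nr2f6 (EAR2) was at 63.0, 59.6, 60.6 and 57.5 CPM in WT and at 74.4, 61.8, 90.2 and 78.1 in LKO, with 1 LKO liver inside the WT range (0.34, SE 0.10, adjusted p = 0.0117), and Nr2f2 (0.14) and Nr2f1 (0.36, SE 0.30) were not called.

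The remaining 6 tested members were the steroid receptor genes Esr1, Nr3c1 and Nr3c2, the estrogen-related receptor genes Esrra and Esrrg and the orphan receptor gene Rora. None was called, and their log2 fold changes lay between -0.34 and -0.06. Nr3c1 encodes the glucocorticoid receptor, and of 6 tested glucocorticoid targets, 2 rose (Sgk1, 0.92, and Tat, 0.17, whose sign would turn with scaling by library totals) and 2 fell (Tsc22d3, -0.37; Pck1, -0.20). Rora moved from -0.14 to 0.27 (adjusted p = 0.000406) when the length trend was removed, so its direction depended on that choice. Nr2f2 had 0.27 (adjusted p = 0.0032) under the same setting. Without LKO replicate 2, 22 members were called rather than 17.

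Coregulators are the proteins that receptors recruit. Of 23 tested coregulator genes, 15 fell, Gps2 itself among them, and 2 rose, with a median log2 fold change of -0.48. The median was -0.27 with the length trend removed (15 lower) and -0.65 without LKO replicate 2 (17 lower), and the part of length in the falls was not tested. Ncor1 (-0.63) fell beside Gps2. So did the acetyltransferase genes Crebbp (-0.81) and Ep300 (-0.60) and the coactivator genes Ncoa1 to Ncoa3 (-0.58 to -0.53). The 2 that rose were Ncoa7 (0.82) and the energy-sensing coactivator gene Ppargc1a (0.53).

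**Figure D2:**
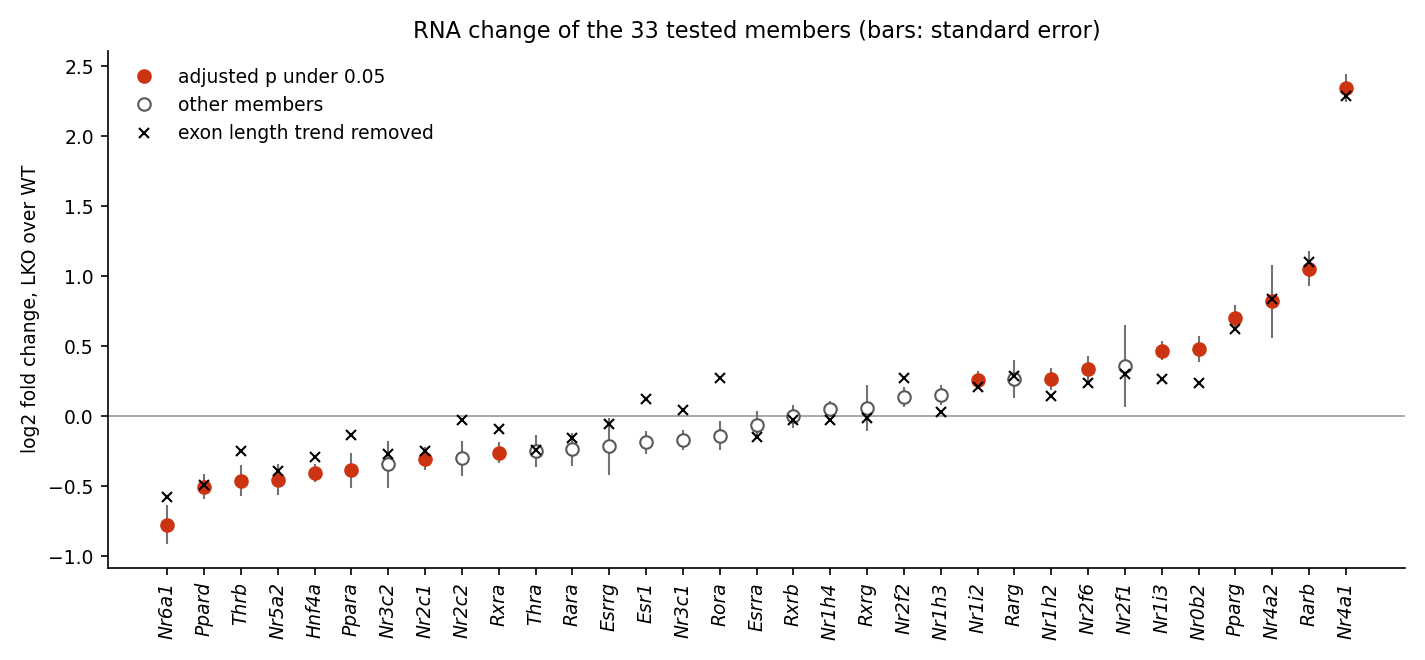
Log2 fold change of RNA in Gps2 LKO over WT for the 33 tested members, with standard errors. Filled points passed an adjusted p of 0.05, open points did not, and crosses give the change with the exon length trend removed. Nr4a1 lies at 2.35 and its cross at 2.29, whereas the crosses of Rora, Esr1, Nr3c1, Nr1h4 and Rxrg lie on the other side of 0.

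GPS2 and RNA polymerase II were profiled in 1 WT and 1 Gps2 LKO library each, so these values have no replicate check. GPS2 tags were found in WT at 340 peaks near 32 members and fell at least 2-fold in LKO at 340 of 340, as at 99.6% of all 49018 peaks in that table. The highest member peaks in WT (tags per 10M, scaled to 10000000 tags a library) were at Nr0b2, at 87.8 behind the gene (chr4:133113386-133113522, build mm9) and 69.0 at its promoter, both with 0.676 in LKO. A pair of intergenic sites upstream of Nr2f2 had 68.4 and 63.9 in WT and 0.676 each in LKO. An intron of Thra had 61.3 in WT, and its count of 0 in LKO allows up to 2.03. At promoters, WT levels ran from 7.10 at Nr1h4 through 35.5 at Nr1i2, 40.0 at Rarb and 45.2 at Rara to 69.0 at Nr0b2. The Nr4a1 promoter was among the lower ones, at 9.68 in WT and 0.676 in LKO.

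Polymerase II rose at least 2-fold at 11 of 161 member peaks, beside 7.72% of all 31434 peaks, and fell at least 2-fold at 9, beside 5.94% of all peaks. These shares were close to the background. At the Nr4a1 promoter the polymerase was at 134 tags per 10M in WT (95% Poisson interval 114 to 157, counting error only) and at 188 in LKO (164 to 214), a ratio of 1.40. At Hnf4a, whose RNA fell, the peak at the main start had 169.9 in WT and 179.9 in LKO, and the upstream start used in other tissues and stages (chr2:163332497-163332699, mm9) had 28.3 and 58.9. The value at the upstream start was chosen after its values were seen. Vdr, absent from the RNA table, had a polymerase peak of 4 tags in WT and 10 in LKO.

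The next question was whether histone marks at receptor genes changed with Gps2. H3K27ac marks active promoters and enhancers, and H3K4me3 marks promoters. For H3K27ac, 2 of 246 member peaks were called higher in LKO and none lower, beside 1.21% higher and 0.212% lower over all 47108 peaks. With H3K4me3, no member peak of 90 was called higher and 1 was lower, beside 0.798% and 0.118% over all 22814 peaks. At an unadjusted p under 0.05 there were 36 member peaks for H3K27ac and 10 for H3K4me3. Few peaks of receptor genes were called, as in the rest of the tables.

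The first rise lay upstream of Nr2f2, the COUP-TFII gene (intergenic, chr7:77626028-77629891, mm9). It had 89.9 and 88.5 tags per 10M in WT and 169.7 and 161 in LKO (log2 fold change 0.89, SE 0.11, adjusted p = 0.0168). The second lay in an intron of Nr1i2, the PXR gene (chr16:38253868-38257381), with 50.0 and 47.7 in WT and 86.5 and 86.9 in LKO (0.83, SE 0.14, adjusted p = 0.0375). In both, the pairs of libraries lay close together and the groups far apart. With TMM scaling or DESeq2 the Nr2f2 peak was still called, but the Nr1i2 peak was not. The single fall of H3K4me3 was at an internal start of Nr6a1 (promoter, chr2:38637189-38642698), from 265 and 243 tags to 168 and 156 (-0.65, SE 0.13, adjusted p = 0.0301). This call was lost when the peaks of both histone marks were all tested. Nr6a1 RNA fell as well. At the upstream start of the same gene H3K4me3 had a mean of 876 in WT and 852 in LKO (adjusted p = 0.96), so the fall was not at both starts.

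No promoter peak of a member within 1000 bases of the start was called for H3K27ac, among 17 members with one. At Nr4a1, whose RNA rose 2.35 on the log2 scale, the H3K27ac peak over the start, chosen after its values were seen, had 138 and 126 tags per 10M in WT against 92.9 and 105 in LKO (-0.41, adjusted p = 0.166). The WT libraries of H3K4me3 had 201 each there, and the LKO libraries 224 and 223 (0.15, adjusted p = 0.869). The LKO libraries lay below WT for acetylation and above it for methylation, and neither difference passed the test.

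PPARα binding in Ppara KO livers checks the antibody and shows which receptor genes PPARα occupies. It fell at 105 of 321 member peaks and rose at none, beside 27.6% of all 40241 peaks called lower and 0.0174% higher. The median log2 fold change was -1.79 at member peaks and -1.68 over all peaks. Summed over each gene's peaks, both KO libraries lay below both WT libraries for 32 of 32 members with peaks, beside 78% of all 11824 genes with peaks. A called peak was found at 27 of the 32, and the 5 without one were Nr2c2, Nr2f1, Ppard, Rarg and Rxrb. Members carried more peaks per gene (321 peaks at 32 members) than all genes did (40241 at 11824). More peaks give a gene more occasions for a call, and these counts per gene were not adjusted for that. Nor were they set against the share of all genes with a called peak, so they do not set receptor genes apart. Rora had 10 of 21 peaks called, Ppara itself 9 of 14, Nr5a2 9 of 32, Thrb 9 of 36, Nr1i2 7 of 10 and Nr0b2 all 4 of 4. Peaks of 1 gene share a locus and are not independent. With TMM scaling, which assumes that most peaks do not change, 16 peaks were called, and leaving out either WT library left 0.

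The largest losses by the naming rule were at Nr2f2 and Nr1i2. Upstream of Nr2f2 (chr7:77669740-77669931, mm9) PPARα had 49.5 and 47.4 tags per 10M in WT and 2.75 and 2.20 in KO (-4.24, SE 0.33, adjusted p = 2.4e-06). In an intron of Nr1i2 (chr16:38287986-38288186) it had 38.2 and 42.8 in WT and 2.75 and 1.47 in KO (-4.19, SE 0.38, adjusted p = 5.31e-06). A second Nr1i2 site fell by 3.62 on the log2 scale, an intergenic site at Rxra by 3.13 and a second Nr2f2 site by 2.99. At the Nr0b2 promoter tags fell from 14.2 and 16.1 to 4.12 and 2.20 (-2.21, adjusted p = 0.00271), and at the Nr1i3 promoter from 16.3 and 11.5 to 2.75 and 2.20 (-2.45, adjusted p = 0.00244). In KO both libraries held under 6 tags per 10M at every site named here.

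PPARα binds with RXR to a direct repeat of AGGTCA spaced by 1 base. A copy with at most 2 mismatches of the 12 repeat bases was searched on both strands in 201 bases around each peak centre. It was present in 24 of the 105 member peaks that fell (22.9%), in 26 of the 216 others (12.0%) and in 13.98% of all peaks. The half-site AGGTCA alone was in 51.4%, 29.2% and 32.6%. Shares among all called peaks, members or not, were not computed here or for the windows below. Whether the contrast is particular to receptor genes was therefore not tested. Sites are shown here for 3 member peaks with a single mismatch, all from the mm9 plus strand, with capitals on the repeat. The first lies in an intron of Nr5a2 (chr1:138792521-138792721, -4.10, adjusted p = 0.000392), the second in an intron of Nr2c1 close to its start (chr10:93610853-93611053, -3.19, adjusted p = 0.000299) and the third upstream of Rxra (chr2:27495572-27495772, -3.15, adjusted p = 0.0271).
Nr5a2 intron: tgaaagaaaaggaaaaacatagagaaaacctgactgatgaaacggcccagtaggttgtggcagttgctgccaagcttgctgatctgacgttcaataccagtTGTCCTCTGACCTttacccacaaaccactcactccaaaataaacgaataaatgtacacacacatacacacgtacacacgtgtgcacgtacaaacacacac
Nr2c1 intron: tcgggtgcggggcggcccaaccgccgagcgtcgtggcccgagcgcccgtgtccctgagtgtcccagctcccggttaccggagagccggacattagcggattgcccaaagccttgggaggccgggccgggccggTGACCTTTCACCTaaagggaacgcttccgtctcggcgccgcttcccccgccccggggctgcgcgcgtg
Rxra upstream: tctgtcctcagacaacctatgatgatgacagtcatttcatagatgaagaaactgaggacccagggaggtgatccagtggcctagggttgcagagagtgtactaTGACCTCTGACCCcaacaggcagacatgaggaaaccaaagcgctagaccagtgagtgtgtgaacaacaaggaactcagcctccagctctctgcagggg
The repeat lies on the minus strand in each, so the plus strand shows its complement. A match describes the letters and does not show that the factor sits on them.

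NCOR was then compared between WT and Ppara KO livers, to ask whether its place at receptor genes depends on PPARα. It was called lower at 33 of 737 member peaks and higher at 2, beside 2.51% lower and 0.136% higher over all 115042 peaks. The median change was -0.27 at member peaks and -0.32 over all. With TMM scaling, which takes such a shift out, 15 member peaks were lower and 12 higher, beside 1.05% and 0.759% of all peaks. The calls gathered at Esrrg, which encodes estrogen-related receptor γ, an orphan receptor of oxidative metabolism. There 18 of 37 peaks were called lower (48.6%), against 15 of 700 peaks of the other members (2.14%). All 37 of 37 Esrrg peaks had a change below 0 (36 with TMM scaling). The Esrrg median was -1.44 and that of the other member peaks -0.25, and with TMM scaling they were -1.14 and 0.06. These peaks share 1 locus, and the count of falls called there was 11 with TMM scaling (4 of 700 at the other members), 2 with DESeq2 and 5 without WT replicate 3.

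At the Esrrg peaks named by rule, NCOR in an intron (chr1:189586818-189586993, mm9) had 32.5, 20.6 and 34.5 tags per 10M in WT and 13.1, 10.8 and 4.98 in KO (-1.61, SE 0.37, adjusted p = 0.00156). A second intronic peak (chr1:189713135-189713284) had 34.1, 31.0 and 38.8 in WT and 12.3, 12.8 and 13.5 in KO (-1.42, SE 0.35, adjusted p = 0.004). The strongest (chr1:189587139-189587319), had 57.7, 44.7 and 69.1 in WT and 25.3, 26.3 and 21.3 in KO (-1.23, SE 0.28, adjusted p = 0.00155). In each, every KO library was below every WT library. The window with the smallest p at this gene (chr1:189720334-189720534, intron, chosen after its values were seen) is shown for its match to the repeat with 2 mismatches and a second half-site, both in capitals, from the mm9 plus strand. NCOR there fell from 18.7, 16.3 and 30.3 to 2.45, 3.37 and 6.40 (-2.38, SE 0.43, adjusted p = 9.33e-06).
Esrrg intron: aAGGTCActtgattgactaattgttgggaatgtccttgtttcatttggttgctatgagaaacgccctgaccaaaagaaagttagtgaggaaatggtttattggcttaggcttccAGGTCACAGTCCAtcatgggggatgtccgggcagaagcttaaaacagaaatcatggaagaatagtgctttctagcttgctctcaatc

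**Figure D3:**
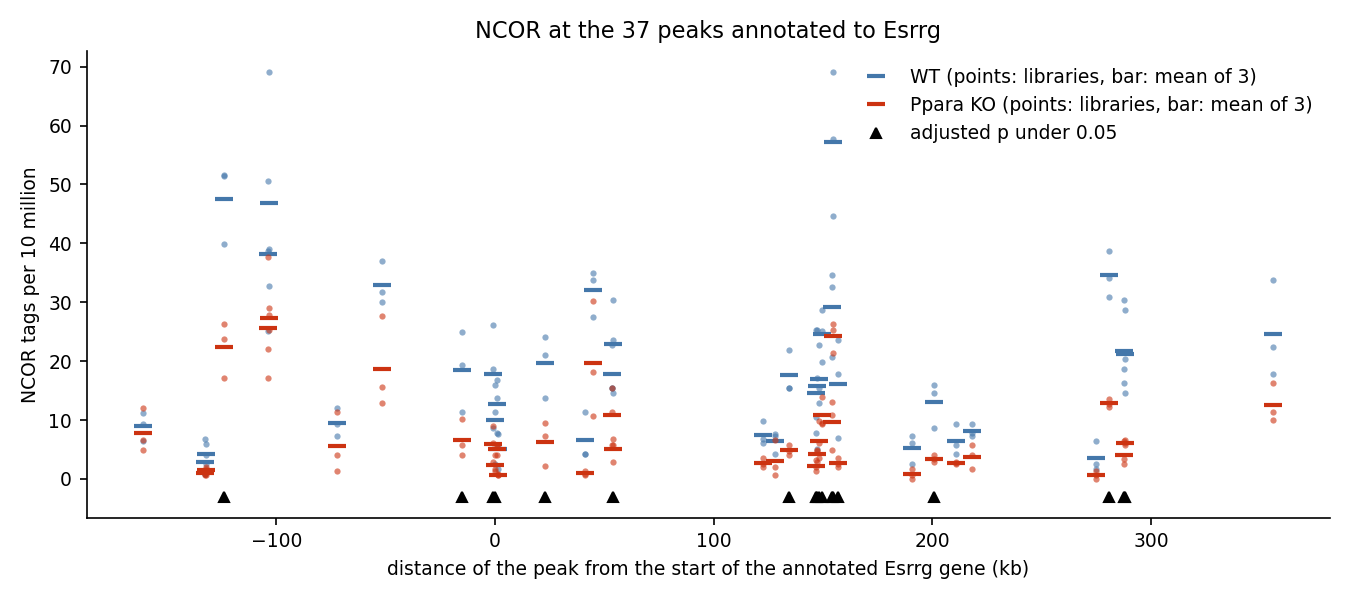
NCOR tags per 10M at the 37 peaks annotated to Esrrg, against the distance of each peak from the start of the gene (kb). Points are libraries, bars are means of 3 WT (blue) and 3 Ppara KO (red) libraries, and triangles mark the 18 peaks with an adjusted p under 0.05. The red bar lies below the blue one at 37 of 37 peaks (36 with TMM scaling, which is not drawn).

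Outside Esrrg, 10 members had a called NCOR peak, a count not set against the share of all genes. Upstream of Nr2f2 (chr7:77768863-77769136) NCOR fell from 20.3, 40.4 and 26.96 to 6.54, 10.8 and 9.96 (-1.66, SE 0.37, adjusted p = 0.00104). At an intergenic site of Nr5a2 (chr1:139177083-139177285) it fell from 24.4, 46.4 and 30.3 to 14.7, 18.2 and 9.96 (-1.23, SE 0.34, adjusted p = 0.0194). Rarb had 4 called falls, with changes between -3.55 and -1.01. The strongest called site was in an intron of Thra (chr11:98616294-98616454), at 141, 142 and 135 in WT and 98.1, 106 and 63.3 in KO (-0.64, SE 0.18, adjusted p = 0.0205). The 2 rises were in an intron of Ppara (chr15:85580583-85580719), from 3.25, 2.58 and 3.37 to 20.4, 15.5 and 7.83 (2.20, adjusted p = 0.000919), and upstream of Rara, from 8.13, 8.60 and 9.27 to 16.3, 18.8 and 28.5 (1.29, adjusted p = 0.0375). Ppara is the gene the KO allele changes, and what the rise there reflects was not tested.

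The largest called fall of all was in an intron of Nr5a2 (chr1:138817349-138817549), with 6.50, 14.6 and 16.9 tags per 10M in WT and 0, 0 and 1.42 in KO (-4.45, SE 0.72, adjusted p = 3.25e-07). Its window holds neither the repeat within 2 mismatches nor the half-site, and is shown beside that of a Rarb intron, which holds only the half-site (capitals). At the Rarb site (chr14:17348249-17348449) NCOR fell from 17.9, 15.5 and 23.6 to 5.72, 8.75 and 4.27 (-1.58, SE 0.41, adjusted p = 0.00846). Both are from the mm9 plus strand and were chosen after their values were seen.
Nr5a2 intron, NCOR: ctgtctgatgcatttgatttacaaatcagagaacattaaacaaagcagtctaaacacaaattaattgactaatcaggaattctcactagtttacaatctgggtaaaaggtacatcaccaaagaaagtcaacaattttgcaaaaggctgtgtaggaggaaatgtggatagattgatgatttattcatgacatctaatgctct
Rarb intron, NCOR: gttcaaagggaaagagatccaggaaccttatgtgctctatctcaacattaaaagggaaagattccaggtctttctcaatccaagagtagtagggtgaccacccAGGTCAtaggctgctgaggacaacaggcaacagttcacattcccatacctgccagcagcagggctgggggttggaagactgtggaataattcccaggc
The repeat was in 4 of the 35 called member peaks (11.4%), beside 10.2% of all NCOR peaks.

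GPS2 in Ppara KO fell at 1 of 203 member peaks and rose at none, beside 0.273% lower and 0% higher over all 27842 peaks. At an unadjusted p under 0.05 there were 52 member peaks, and the median change was -1.03 at member peaks and -0.93 over all, a shift shared by the whole table. The called site is upstream of Nr2f2 (chr7:77669182-77669484), with 31.2, 23.4 and 50.0 in WT and 8.74, 6.05 and 7.21 in KO (-2.23, SE 0.58, adjusted p = 0.0491). It is near the PPARα site that fell most, and PPARα at the called site itself fell from 21.7 ± 1.42 to 1.79 ± 0.584 (SD, n = 2; -3.55, adjusted p = 6.49e-05). NCOR there was at 125 ± 13.2 in WT and 100.4 ± 13.6 in KO (SD, n = 3; adjusted p = 0.378), and GPS2 in the Gps2 line at 47.1 in WT and 0 in LKO. Its call was lost in 9 of 10 alternatives, and adjusted p ran up to 0.559.

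In Ncor LKO, GPS2 was called at no member peak of 389 in either direction, beside 0% higher and 0.0338% lower over all 56278 peaks. The test was edgeR's quasi-likelihood test, under which 164 member peaks had an unadjusted p under 0.05. DESeq2 called 3, all higher, and TMM scaling called 4 higher and 2 lower. The median change was -1.22 at member peaks and -1.12 over all, and summed over peaks it was below 0 for 33 of 33 members. WT replicate 3 had 3.07% of its tags in peaks, within the 2.45% to 3.15% of the LKO libraries, whereas the other WT libraries had 7.82% and 8.23%. Without it 272 member peaks were called, 271 of them lower (69.7%), beside 59.1% of all peaks called lower in the same setting. The calls turned on this library, for the members as for the whole table. At the Nr2f2 site with the smallest p (chr7:77944261-77944514) the WT libraries had 79.0, 51.6 and 19.8 and the LKO libraries 10.3, 13.6 and 9.35 (-2.17, adjusted p = 0.0761).

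NCOR in Gps2 LKO was called at no member peak of 486, beside 0.0124% higher and 0.00495% lower over all 80813 peaks, with edgeR. At an unadjusted p under 0.05 there were 11 member peaks, and TMM scaling called 1. The strongest NCOR site of a member was the Nr0b2 promoter, at 175 ± 32.7 in WT and 144 ± 62.9 in LKO (SD, n = 3). The smallest p was at a weak intronic site of Thrb, with 17.2, 10.4 and 4.64 in WT and 2.35, 4.63 and 3.25 in LKO (-1.67, adjusted p = 0.718).

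PPARα binding was also measured in Gps2 LKO, where the WT libraries count as 1 sample and are assumed to vary like the LKO libraries. It rose at 14 of 659 member peaks and fell at none, beside 2.49% higher and 0.0234% lower over all 102519 peaks. The median change was 0.60 at member peaks and 0.61 over all, so receptor genes followed the shift of the table. With TMM scaling or DESeq2, which take such a shift out, 0 member peaks were called. The 14 rises were at Esrrg (4), Rarb and Rora (2 each), Esr1, Nr1i2, Nr3c2, Nr5a2, Ppara and Thrb (1 each).

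At a Rarb intron (chr14:17348255-17348464) PPARα had 16.5, 20.9 and 25.9 tags per 10M in WT and 66.7, 54.9 and 60.4 in LKO (1.53, SE 0.37, adjusted p = 0.00876). This site overlaps the Rarb window printed above, where NCOR fell in Ppara KO. At the end of Nr5a2 (3' UTR, chr1:138740934-138741137) it had 13.9, 15.2 and 13.5 in WT and 48.3, 44.5 and 44.6 in LKO (1.67, SE 0.41, adjusted p = 0.0121). The other rises named by rule were a second Rarb site (1.97), a Rora intron (1.62) and an Esrrg intron (1.56). In the Nr1i2 intron whose H3K27ac rose, PPARα went from 10.1, 4.75 and 4.51 to 31.0, 19.9 and 29.3 (2.01, SE 0.54, adjusted p = 0.0218). Its window (chr16:38256105-38256305, mm9 plus strand) holds 1 half-site, written on the plus strand as TGACCT and in capitals.
Nr1i2 intron: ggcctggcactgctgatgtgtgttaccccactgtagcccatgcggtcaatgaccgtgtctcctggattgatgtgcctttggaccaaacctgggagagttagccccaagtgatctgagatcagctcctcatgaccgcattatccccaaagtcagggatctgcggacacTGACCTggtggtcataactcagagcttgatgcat
The spaced repeat was in 0 of the 14 called windows, beside 15.2% of the member peaks and 13.3% of all peaks. The half-site was in 6 of the 14 (42.9%), beside 32.8% of the member peaks and 31.8% of all peaks.

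In Ncor LKO, PPARα was called higher at 1 of 555 member peaks and lower at none, beside 0.151% higher and 0.0453% lower over all 86168 peaks. The call, at a site annotated to Nr3c1, rested on few tags (0.617, 0 and 0.475 per 10M in WT and 2.85, 3.20 and 15.2 in LKO). The strongest member site was upstream of Ppara, where PPARα was at 199 ± 70.3 in WT and 215 ± 55.6 in LKO (SD, n = 3; log2 fold change 0.11, SE 0.35). The median change over member peaks was 0.11, beside 0.10 over all peaks.

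The last question was whether loss of NCOR or SMRT altered acetylation at receptor genes. In Ncor LKO, H3K27ac was called higher at 7 of 361 member peaks and lower at 2, beside 2.32% and 0.801% over all 68817 peaks. The 9 calls were at only 3 genes: 3 rises at Esrrg, 3 at Nr2f2, and 1 rise and 2 falls at Rora. In Smrt LKO no member peak of 361 was called, beside 0% higher and 0% lower over all 68800 peaks. That count is from edgeR's quasi-likelihood test, with 16 member peaks and 4079 of all peaks at an unadjusted p under 0.05, and DESeq2 called 0 member peaks.

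At an Esrrg intron (chr1:189719674-189721531, mm9) H3K27ac had 17.0, 13.9 and 13.9 tags per 10M in Ncor WT and 32.1, 44.2 and 36.4 in Ncor LKO (1.33, SE 0.19, adjusted p = 0.00684), called in 10 of 10 alternatives. In the Smrt line the same peak had 40.0, 30.2 and 35.4 in WT and 37.1, 35.5 and 33.7 in LKO. The Ncor WT libraries were the low group, and Ncor LKO lay at the level of both Smrt groups. The difference between the effects was 1.32 (SE 0.24, adjusted p = 0.0327). Unlike the Ncor effect, this difference was called in only 7 of 16 alternatives, with adjusted p up to 0.104. No other member peak had a called difference, so 1 of 361 was higher and none lower, beside 0.33% and 0.0959% of 68818 peaks. A broad Esrrg domain (chr1:189577734-189591127) rose as well, from 443, 483 and 422 to 594, 754 and 748 (0.64, SE 0.12, adjusted p = 0.0181). A weak Esrrg peak rose by 1.14 on the log2 scale and was called in 3 of 10 alternatives.

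Nr2f2 gained acetylation at intergenic sites. The site that rose in Gps2 LKO (here chr7:77626234-77629542) had 49.0, 52.0 and 58.6 in Ncor WT and 79.6, 101 and 93.7 in Ncor LKO (0.78, SE 0.15, adjusted p = 0.0208). In the Smrt line it had 87.9, 84.2 and 85.4 in WT and 95.3, 83.7 and 72.3 in LKO (-0.03, adjusted p = 0.976). Again Ncor WT was the lowest of the 4 groups. The other 2 Nr2f2 rises were 0.88 and 0.66. Of 10 alternatives, the first site was called in 6 and these 2 in 4 and 6. Rora, which encodes a sterol-binding orphan receptor, lost acetylation in an intron (chr9:69028028-69032775), from 228, 233 and 215 to 120.3, 107 and 146 (-0.86, SE 0.13, adjusted p = 0.00932). A neighbouring intronic peak fell by 0.77 on the log2 scale, and another intronic peak rose by 0.47.

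**Figure D4:**
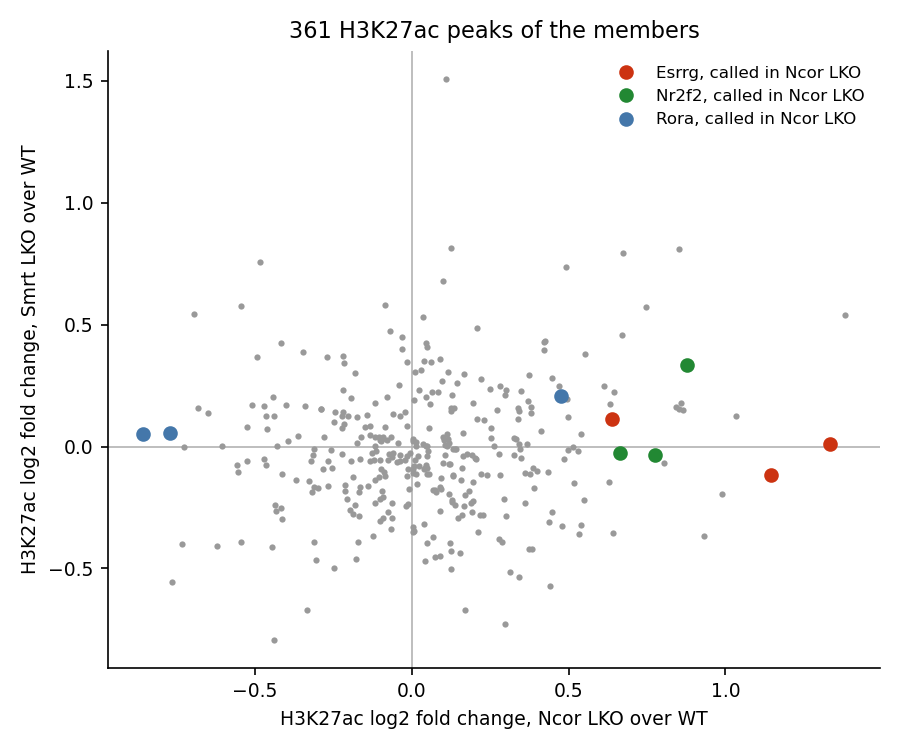
Log2 fold change of H3K27ac in Ncor LKO (x axis) and in Smrt LKO (y axis) at the 361 peaks of the members. Coloured points are the peaks of Esrrg, Nr2f2 and Rora called in Ncor LKO, and grey points are the others. The called Esrrg peak with the largest change lies at 1.33 on the x axis and 0.01 on the y axis.

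Several tables met at the Esrrg intron of chr1:189719674-189721531. It was singled out after its values were seen, so their meeting there is not independent evidence. Beside the gain of H3K27ac in Ncor LKO, NCOR fell there in Ppara KO at both peaks inside it (-2.38 and -1.79), and PPARα rose in Gps2 LKO at a site overlapping one of them (1.33, adjusted p = 0.0411). It had 16.5, 20.9 and 15.8 in the WT libraries, which count as 1 sample, and 46.0, 48.3 and 39.9 in LKO. The median PPARα change over all peaks of that comparison was 0.61. In Ncor LKO, PPARα had 5.55, 3.74 and 4.28 in WT and 10.8, 10.7 and 22.5 in LKO (1.69, adjusted p = 0.262). H3K27ac in Gps2 LKO had 18.3 ± 4.15 in WT and 27.4 ± 3.58 in LKO (adjusted p = 0.301). Esrrg RNA, however, was at 1.80, 1.55, 1.34 and 1.21 CPM in WT and at 1.12, 1.32, 1.43 and 1.15 in Gps2 LKO, with overlapping groups (-0.21, adjusted p = 0.43). No RNA of the Ncor, Smrt or Ppara lines was analysed here. GPS2 was low at this intron, at 6.45 and 5.16 tags per 10M in WT for its peaks there.

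**Figure D5:**
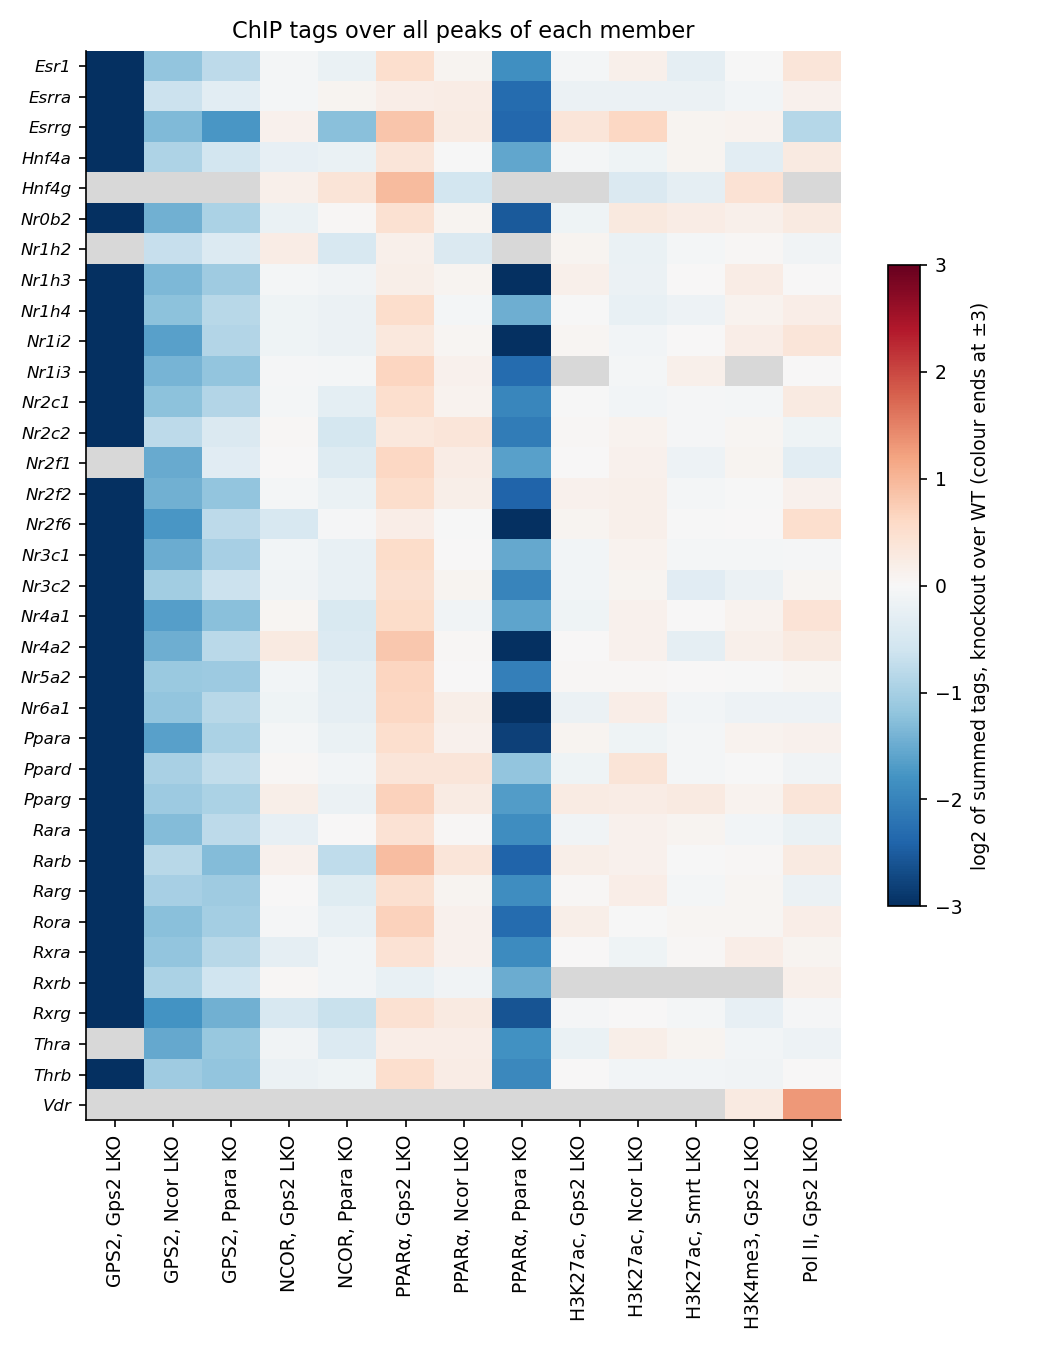
Log2 ratio, knockout over WT, of ChIP tags summed over all peaks of each member (rows) in each ChIP comparison (columns), with colour ends at -3 and 3. Grey marks members without a tested peak, with under 1 tag per 10M in WT or with no tags in a group. Whole columns share a colour, as GPS2 in Gps2 LKO and PPARα in Ppara KO do, and Esrrg has the lowest value for NCOR in Ppara KO (-1.26).

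Summed over all peaks of a gene, NCOR in Ppara KO ran from -1.26 at Esrrg and -0.76 at Rarb to 0.38 at Hnf4g, with 9 of 34 members not overlapping between groups, all with KO below WT, beside 29.3% of all 18368 genes with peaks. GPS2 in Ppara KO was lowest at Esrrg too (-1.75). H3K27ac in Ncor LKO was highest at Esrrg (0.63), whereas Smrt LKO ranged from -0.33 to 0.28 over 33 members. Vdr, the vitamin D receptor gene, had a single PPARα peak with under 1 tag in WT, and its H3K4me3 peak held 75.3 tags per 10M in WT and 91.3 in LKO.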

How the data were processed

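RNA-seq (8 libraries) and ChIP-seq (64 libraries) of mouse liver were used, through 72 columns of per-sample values. Both input libraries were left out. The RNA table holds read counts per gene as deposited by the authors, who per their methods aligned poly(A)-selected reads with HISAT2 and counted exon tags with HOMER. The submitters' processing notes also name featureCounts and the builds mm9, GRCm38 and mm10, and the exon positions in the table overlapped the gene of that name in GRCm38 for 14535 of 14583 genes. The ChIP tables hold raw tag counts per peak and library, deposited by the authors after alignment to mm9 with Bowtie and peak finding and annotation with HOMER, over peaks merged across the libraries of a table. How peaks were thresholded is not stated. The deposited BED lists of histone peaks carry a constant score of 1 and served only to keep peaks found in at least 2 libraries of the Gps2 line. Columns of the authors' own fold changes, p-values and false discovery rates were not used.

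Differences were tested with edgeR 4.0.16 quasi-likelihood fits (R 4.3.3) across the whole table, with only the libraries of the comparison in the fit, TMM scaling and the filter of filterByExpr for RNA, and the total tags of a library as its size for ChIP. The H3K27ac tables of the Ncor and Smrt lines were also fitted together for the difference between the effects. Benjamini-Hochberg adjusted p under 0.05 was called, and "groups do not overlap" means that every library of one group lies above every library of the other. RNA levels between genes are RPKM from the deposited exon lengths. The 3 WT libraries of PPARα in the Gps2 line were averaged to 1 sample, with the mean of their totals as its size. Single-library comparisons give exact Poisson intervals at 95%, which cover counting error only, and a count of 0 allows up to 3 counts. DESeq2 1.42.0 was an alternative, and the exon length trend was removed with a lowess curve per library, entered as an offset. Python 3.11.15, pandas 2.3.3, scipy 1.17.1 and matplotlib 3.10.9 made the summaries and figures. Scripts were tested on simulated data.

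Library totals ran from 13.2 to 20.1 M for RNA and from 7.90 to 46.1 M for ChIP. Groups came from the sample titles. The labels do not tie library numbers to shared litters or days, and p-values measure the spread between these libraries. ChIP peaks of a member are those whose nearest start belongs to it, which does not show that they act on it.

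Values per library are given for every member called or not overlapping in RNA, for the 5 highest genes in WT, and in each ChIP table for up to 5 rises and 5 falls by size among called member peaks with at least 20 tags a library on average and no overlap, or for the 3 smallest p where none passed. Other peaks, and histone peaks covering a start site, were chosen after their values were seen. The members and gene lists were chosen with earlier results of these data known, and some genes of the lists are not reported here. Promoters (32 members matched) are from RefSeq for GRCm38.p6, peak windows from mm9.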

Additional observations from a re-analysis of the deposited data

Results flagged for a closer look

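Among 68 groups of 4 RNA libraries of the members, 5 held a library far from the others by Dixon's criterion, where chance gives about 1 in 20. Esrra was at 23.2 CPM in WT replicate 4, against 27.7 to 28.5 in the other WT livers, and Thra was at 6.43 in the same liver, against 8.02 to 8.33. Nr1h4 was at 159.9 CPM in WT replicate 1, against 168 in each of the others. Ppara was at 349 CPM in LKO replicate 2, against 217 to 237 in the other LKO livers, and this is the library that stood apart over all genes. Pparg was at 11.5 CPM in LKO replicate 4, against 13.0 to 13.2.

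The effect of Ncor LKO on H3K27ac at the Esrrg intron of chr1:189719674-189721531 exceeded that of Smrt LKO by 1.32 on the log2 scale (SE 0.24, edgeR adjusted p = 0.0327). The difference was called in 7 of 16 alternatives. All 3 Ncor LKO libraries lay above all 3 Ncor WT libraries, and the Smrt groups overlapped. The Smrt WT libraries lay at 30.2 to 40.0 tags per 10M at this peak and the Ncor WT libraries at 13.9 to 17.0, and line and batch cannot be told apart between them.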

How the results depend on the processing

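In RNA, 16 to 22 members were called when 1 liver was left out, beside 17 with all, the most without LKO replicate 2. Of the 17, 13 stayed called in all 13 alternatives, and the exceptions were Nr1h2, Nr4a2, Ppara and Rxra. With the exon length trend removed the sign of 5 uncalled members turned, to 0.12 for Esr1, -0.024 for Nr1h4, 0.047 for Nr3c1, 0.27 for Rora and -0.012 for Rxrg. Leaving out 1 liver, Rxrb ranged from -0.042 to 0.049 and was above 0 without WT replicate 1, WT replicate 2 or LKO replicate 1. Rxrg ranged from -0.025 (without LKO replicate 3) to 0.17.

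The ChIP counts moved more, and the cause was not tested. They are counts of member peaks, given in this section without the shares of all peaks in the same settings. They show how calls depended on processing and do not set receptor genes apart from other genes. TMM scaling called 1 H3K27ac peak in Gps2 LKO, 1 for NCOR in Gps2 LKO, 6 for GPS2 in Ncor LKO, 0 for GPS2 in Ppara KO, 0 for PPARα in Gps2 LKO, 4 for PPARα in Ncor LKO and 16 for PPARα in Ppara KO. DESeq2 called 1 H3K27ac peak in Gps2 LKO, 14 in Ncor LKO, 6 for NCOR in Ppara KO, 3 for GPS2 in Ncor LKO, 0 for GPS2 in Ppara KO, 0 for PPARα in Gps2 LKO, 0 for PPARα in Ncor LKO, 6 for PPARα in Ppara KO and 5 for the difference between Ncor and Smrt LKO. A filter on low counts called 16 for GPS2 in Ncor LKO, 2 for GPS2 in Ppara KO and 0 for PPARα in Ncor LKO. With peaks of at least 1 library, a choice made after seeing the data, 4 H3K27ac peaks were called in Gps2 LKO, and with every peak that both marks share in 1 table, 0 for H3K4me3. PPARα in Gps2 LKO gave 259 with the WT libraries as separate samples. At 4-fold, 1 polymerase II peak was counted.

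Leaving out 1 library gave 0 to 11 calls for H3K27ac and 0 to 0 for H3K4me3 in Gps2 LKO, 1 to 9 for H3K27ac in Ncor LKO, 0 to 0 in Smrt LKO, 0 to 0 for NCOR in Gps2 LKO, 9 (without WT replicate 3) to 39 for NCOR in Ppara KO, 0 to 272 (without WT replicate 3) for GPS2 in Ncor LKO, 0 to 0 for GPS2 in Ppara KO, 5 to 35 for PPARα in Gps2 LKO, 0 to 2 in Ncor LKO, 0 to 87 in Ppara KO and 0 to 2 for the difference between Ncor and Smrt LKO. Where this left 1 sample in a group, that sample was assumed to vary like the others.

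Replicate numbers are shared between groups. In no comparison with 3 or more pairs did every same-numbered pair correlate more highly than its pairs with other numbers. These correlations cannot settle whether same-numbered libraries shared a litter or day. Correlations of same-numbered pairs ran from 0.01 to 0.11 for RNA and from -0.15 to 0.27 for ChIP. The highest were NCOR replicates 2 and 3 in the Ppara line (0.25 and 0.27, with -0.02 for replicate 1), and the 2 pairs of H3K27ac and of H3K4me3 in the Gps2 line had 0.11 and 0.10. With the replicate number as a block, calls numbered 10 for H3K27ac and 4 for H3K4me3 in Gps2 LKO, 5 for H3K27ac in Ncor LKO, 23 for NCOR in Ppara KO, 101 for GPS2 in Ncor LKO, 0 for GPS2 in Ppara KO, 257 for PPARα in Gps2 LKO, 0 in Ncor LKO and 0 in Ppara KO, and 0 for the difference between Ncor and Smrt LKO.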
